A study of Mus musculus with 15 samples.

Results

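mmu-miR-370-3p, mmu-miR-494-3p, mmu-miR-487b-3p and mmu-miR-376a-3p, mature miRNAs of the imprinted Dlk1-Dio3 domain, are described here across a differentiation of mouse epiblast stem cells. They were chosen by name, as miRNAs that had given signal on these same arrays, so their presence and their levels are a description. They are 4 of the 1122 mouse miRNAs on the array and are written below without the prefix mmu, for mouse. Epiblast stem cells (EpiSC) are pluripotent cells in the primed state of the early postimplantation embryo. These came from Pitx3-GFP mice, whose reporter marks Pitx3, a transcription factor of midbrain dopaminergic neurons, and the labels call the samples primary cells. The 5 groups of 3 arrays were EpiSC at day 5, before any morphogen, cells given SHH and FGF8 from day 5 and collected at day 9 or day 14 (treated), and cells grown without the morphogens to day 9 or day 14 (control). SHH and FGF8 are secreted factors that pattern the ventral midbrain. The labels do not say that replicates were separate cultures, so every p measures only the spread between these samples, which may be technical.

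The Dlk1-Dio3 domain on mouse chromosome 12 is imprinted: protein-coding genes such as Dlk1 and Dio3 are expressed from the paternal chromosome, and long noncoding transcripts (Meg3, Rian and Mirg) from the maternal one. Those transcripts carry one of the largest groups of miRNA hairpins of the mammalian genome, which are cut from them and are known from embryonic and placental tissue and from brain. In pluripotent cells, silencing of the maternal transcripts is a known epigenetic variation between lines. A miRNA pairs with its targets mainly through its seed, bases 2 to 8 from the 5′ end.

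The mature sequences of the 3 with a RefSeq entry are shown because each has a seed of its own. They are written 5′ to 3′ with the seed in capitals, from RefSeq (GRCm38.p6), and 0 other miRNAs of the RefSeq table carry any of these seeds.
miR-370-3p: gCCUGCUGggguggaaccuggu
miR-494-3p: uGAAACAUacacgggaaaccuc
miR-376a-3p: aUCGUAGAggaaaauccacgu
The fourth, miR-487b-3p, is named only.

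All 4 hairpins lie on the plus strand of chromosome 12, in GRCm38.p6 coordinates. Mir370 (chr12:109618258-109618336) lies within the span of Rian, between Mir1188 and Mir882. Mir494 (chr12:109715318-109715402) lies between Mir329 and Mir679, 97 kb further on. Mir376a (chr12:109723781-109723848) lies between Mir376b and Mir300, and Mir487b (chr12:109727333-109727414) between Mir381 and Mir539. The last 3 lie close together, with 8.4 kb from Mir494 to Mir376a and 3.5 kb from Mir376a to Mir487b, inside the run of hairpins from Mir379 to Mir410 that is known as the miR-379/miR-410 cluster.

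Levels are given as scaled log2 signal, in which 0 is an array's 75th percentile over the 361 probes that were above background on all 15 arrays. A floor of -4.24, near the dimmest signal that still counted as above background, replaces anything lower, and values at the floor have no order. That percentile ran from 141 to 328 intensity units. Each array had between 238 and 333 mouse miRNAs above background, with 3.81% to 5.00% of its spots marked as outliers and 0 saturated. The arrays lay on 2 slides. On slide 1 were all arrays of day 5 and of treated cells at day 9, with replicates 1 and 2 of treated cells at day 14. The third of these and every control array were on slide 2. Treated and control cells at day 9 were therefore on different slides, where slide and treatment cannot be told apart.

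miR-370-3p was above background on all 15 arrays. At day 5 it read -1.67, -1.72 and -1.58, a mean of -1.66 ± 0.07 (SD, n = 3). Treated cells read -1.65, -1.94 and -1.92 at day 9, with a mean of -1.83 ± 0.16 (SD, n = 3). These levels overlapped with day 5. At day 14 the treated arrays read -0.91, -0.78 and -1.12, a mean of -0.94 ± 0.17 (SD, n = 3), and all 3 were above every array of the other groups. Control cells read -2.09, -1.83 and -1.89 at day 9, a mean of -1.94 ± 0.14 (SD, n = 3). At day 14 they read -2.24, -2.84 and -2.57, a mean of -2.55 ± 0.30 (SD, n = 3), below every other array. From high to low the order was treated day 14, day 5, treated day 9, control day 9 and control day 14, and neighbours among the middle 3 overlapped.

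miR-494-3p was also above background on all 15 arrays, and was brighter than the 75th percentile on each. It read 1.64, 1.67 and 2.07 at day 5, a mean of 1.79 ± 0.24 (SD, n = 3). Treated cells read 1.75, 1.75 and 1.65 at day 9, a mean of 1.72 ± 0.06 (SD, n = 3). At day 14 they read 2.15, 2.00 and 1.99, a mean of 2.05 ± 0.09 (SD, n = 3). The highest day 5 array lay within the range of treated day 14, so those neighbours overlapped. Control cells read 1.62, 1.60 and 1.50 at day 9, a mean of 1.58 ± 0.06 (SD, n = 3), and 0.88, 0.81 and 0.84 at day 14, a mean of 0.84 ± 0.04 (SD, n = 3). The order of the 5 means was that of miR-370-3p, and the control day 14 arrays again lay below all others.

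miR-487b-3p was near the limit of detection. It was above background on 2 of 3 arrays at day 5, on 3 of 3 treated arrays at day 9, on 2 of 3 treated arrays at day 14 and on 0 of 3 control arrays at either day. Its levels were -3.44, -3.87 and -4.19 at day 5, and -3.54, -3.71 and -3.63 in treated cells at day 9. In treated cells at day 14 replicates 1 and 2 read -4.03 and -3.96 and replicate 3 was at the floor of -4.24, as were all control arrays. The arrays with signal were 7 of the 8 on slide 1 and 0 of the 7 on slide 2. Treated day 14 replicate 3, the treated array on slide 2, read 8.47 intensity units against 18.9 and 19.2 for replicates 1 and 2 on slide 1. The part of the slide in this pattern was not tested beyond the values given with each comparison.

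miR-376a-3p, of a family whose seed is known to be edited from adenosine to inosine, was dimmer still, and was above background on 4 arrays: treated day 9 replicate 2 and the 3 treated day 14 arrays. In intensity units the treated day 14 arrays read 16.1, 16.9 and 16.0, a mean of 16.3 ± 0.49 (SD, n = 3). The other groups had means from 8.17 at day 5 to 11.3 in treated cells at day 9, and their highest array was treated day 9 replicate 2 at 14.1. The unscaled treated day 14 signals were thus above all 12 others. After scaling, 12 of the 15 arrays were at the floor, and the 3 above it were day 5 replicate 1 at -4.08, which was not above background, and treated day 14 replicates 2 and 3 at -4.15 and -4.02.

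**Figure D1:**
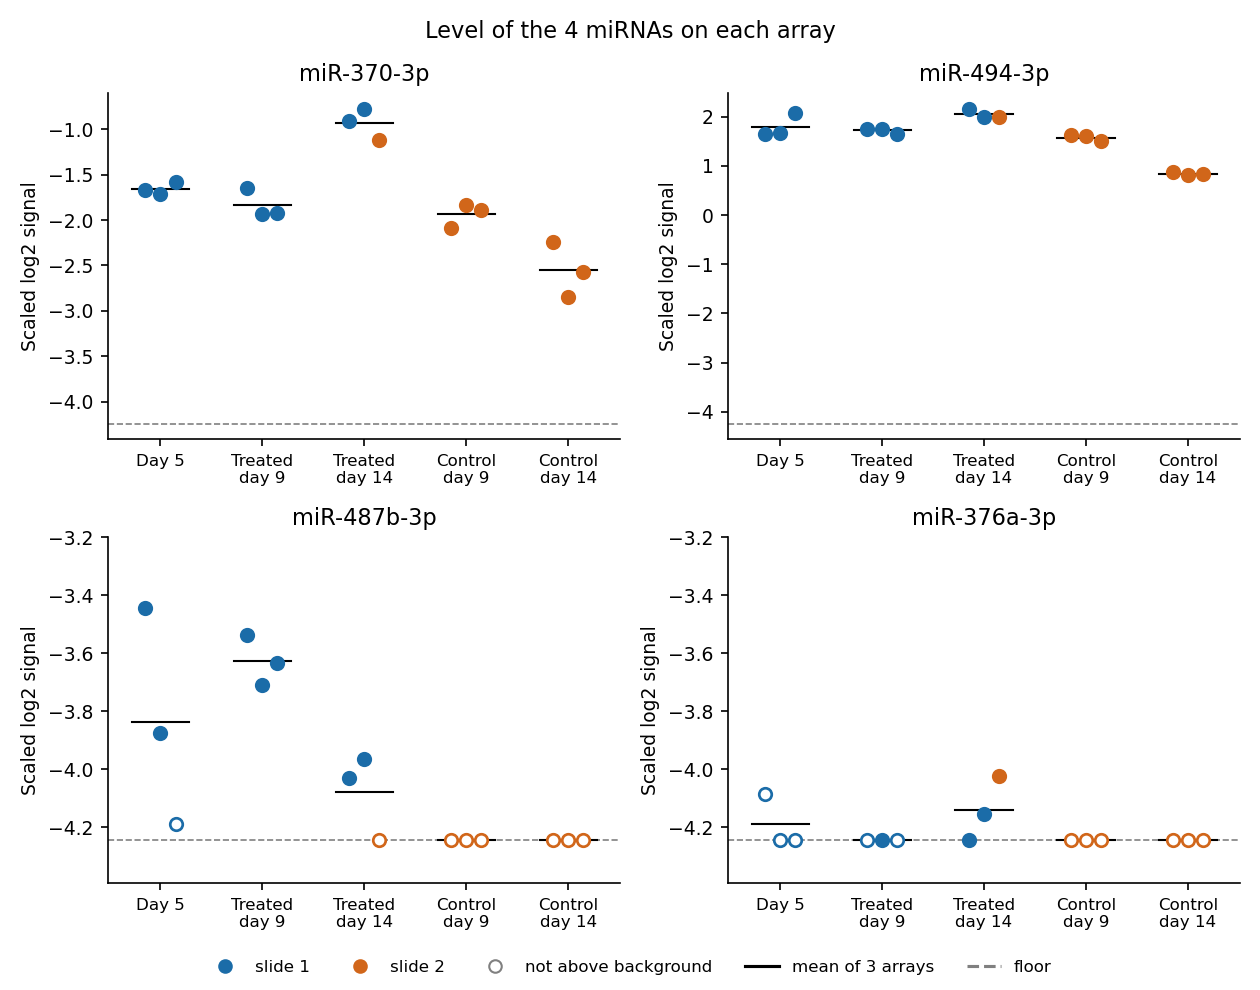
Scaled log2 signal (y axis) of the 4 miRNAs in the 5 groups (x axis), one point per array, coloured by slide; open points were not above background, bars are means of 3 arrays and the dashed line is the floor of -4.24. miR-370-3p and miR-494-3p separate treated from control arrays at day 14, with treated means of -0.94 and 2.05 against -2.55 and 0.84, while the lower panels, drawn over a narrower range, stay within about 1 log2 unit of the floor.

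Treated and control cells at day 14 differed in miR-370-3p and miR-494-3p. miR-370-3p was 3.06-fold higher in treated cells (log2 difference 1.61, SE 0.14, adjusted p = 5.4e-07, limma, n = 3 and 3), and ranked 6 of the 306 tested miRNAs by signed difference. miR-494-3p was 2.31-fold higher (log2 difference 1.21, SE 0.10, adjusted p = 3.1e-07, limma, n = 3 and 3), and ranked 12. The treated arrays of both lay wholly above the control arrays. Of the 4 miRNAs 2 were called, where 52.0% of all tested miRNAs were called, and 2 of 4 had groups that did not overlap, against 56.2% of all tested. The median of all 306 tested miRNAs was itself 0.22 higher in treated cells, a shift that was 0 under median scaling and -0.07 when the percentile was taken over all probes. Under median scaling miR-370-3p differed by 1.40 and miR-494-3p by 0.99. With the percentile over all probes they differed by 1.24 and 0.84. Under normexp background correction the difference of miR-370-3p was 0.87 and that of miR-494-3p 1.15, and over the 16 other settings tried their adjusted p ran from 2.0e-08 to 0.014 and from 2.3e-09 to 0.00039.

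Within slide 2, treated replicate 3 against the 3 control arrays gave 1.43 for miR-370-3p (adjusted p = 0.014) and 1.15 for miR-494-3p (adjusted p = 0.00039), the lone treated array being assumed to vary like the control arrays. With slide as a block the differences were 1.43 and 1.15 again, which is the same comparison and not a second one. Only treated day 14 lay on both slides, so its own arrays set the slide term. Replicate 3 alone was then set against the control arrays. Slide 1 holds no control array and gives no value of its own. miR-487b-3p was not above background in any control array at day 14, and was so on 2 of 3 treated arrays. Its floored means were -4.08 in treated and -4.24 in control cells, a log2 difference of 0.16 (adjusted p = 0.36, limma). Since treated replicate 3 was itself at the floor, no lower bound of the fold of miR-487b-3p is given. Its log2 difference was 0 within slide 2, with slide as a block, under median scaling and with a floor 4 times higher, and 1.04 with a floor 4 times lower (adjusted p = 0.0024) and 1.27 with the scanner software's total gene signal (adjusted p = 0.024). miR-376a-3p differed by 0.10 in floored log2 signal (adjusted p = 0.23, limma), also against control arrays that were all at the floor. Its treated replicate 1 was at the floor too, so no lower bound of its fold is given either. Its log2 difference was 0 under median scaling and with the higher floor, and -0.06 under normexp. It was 0.22 within slide 2, which rests on 1 treated array. With a floor 4 times lower it was 0.51 (adjusted p = 0.060, limma), and with total gene signal 0.95 (adjusted p = 0.14, limma). "At least" folds, given below for other comparisons, are taken against the dimmest signal that counted as above background. That these 2 were detected in treated cells is part of how they were chosen. miR-487b-3p also entered the tested set through treated day 9 alone and miR-376a-3p through treated day 14 alone, the groups in which all 3 arrays showed them.

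At day 9 the treated and control levels of the bright pair were close. miR-370-3p differed by 0.10 (95% confidence interval -0.20 to 0.41, adjusted p = 0.56), and its sign turned to -0.44 with the percentile taken over all probes, to -0.24 under quantile normalization, to -0.16 under median scaling and to -0.18 with slide as a block. miR-494-3p differed by 0.14 (95% confidence interval -0.07 to 0.36, adjusted p = 0.24), and its sign turned under the same 3 scalings, to -0.40, -0.08 and -0.12. Its treated arrays did lie above its control arrays by a small margin, and it was called higher with array weights (adjusted p = 0.017) or with only the groups compared in the fit (adjusted p = 0.049). With the percentile over all probes both were called lower in treated cells (adjusted p = 0.035 for miR-370-3p and 0.019 for miR-494-3p). miR-487b-3p, on 3 of 3 treated and 0 of 3 control arrays, was at least 1.38-fold higher in treated cells. It had entered the tested set through this treated group, so the fold is a description and its test (adjusted p = 0.0021, and 0.34 with slide as a block) supports nothing. miR-376a-3p was at the floor on all 6 arrays. Of the 4 miRNAs 1, miR-487b-3p, was called, against 53.3% of all tested, and 2 had groups that did not overlap, against 68.3%.

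The treatment difference was therefore compared between the days. For miR-370-3p the difference at day 14 exceeded that at day 9 by 1.51 (log2, SE 0.20, adjusted p = 9.2e-05, limma, n = 3 in each of 4 groups), rank 1 of 306 by signed size. For miR-494-3p it did so by 1.06 (SE 0.14, adjusted p = 9.2e-05), rank 6. Under normexp the 2 values were 0.80 and 1.01. miR-487b-3p went the other way at -0.45 (adjusted p = 0.10), again with treated day 9 as its high group, and miR-376a-3p gave 0.10 (adjusted p = 0.48). Of the 4 miRNAs 2 were called, against 33.7% of all tested; the day 9 part rests on arrays of different slides.

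Both sides contributed to that difference. In treated cells miR-370-3p rose 1.86-fold from day 9 to day 14 (log2 0.90, SE 0.14, adjusted p = 7.1e-05), with no overlap between the days. miR-494-3p rose 1.26-fold (log2 0.33, SE 0.10, adjusted p = 0.0098). Within slide 1, day 14 replicates 1 and 2 against the 3 day 9 arrays gave 0.99 for miR-370-3p (adjusted p = 0.00022) and 0.36 for miR-494-3p (adjusted p = 0.058). The call of miR-494-3p was also lost under median scaling (0.11, adjusted p = 0.23) and with the scanner software's total gene signal (0.18, adjusted p = 0.15), and miR-370-3p was 0.50 under normexp. miR-487b-3p differed by -0.45 (log2, SE 0.14), and by -0.37 without treated day 14 replicate 3, its array on slide 2. Treated day 9 is the group through which it entered the tested set, so its test (adjusted p = 0.011) is not read as a result. miR-376a-3p differed by 0.10 (adjusted p = 0.20). With miR-487b-3p, 3 of the 4 miRNAs were called, against 67.0% of all tested.

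In control cells both bright miRNAs fell from day 9 to day 14, and all 6 of those arrays were on slide 2. miR-370-3p fell by 0.61 on the log2 scale, a 1.53-fold decrease (SE 0.14, adjusted p = 0.0019), and by 0.30 under normexp. miR-494-3p fell by 0.73, a 1.66-fold decrease (SE 0.10, adjusted p = 2.4e-05). Within slide 2 the adjusted p were 0.039 and 0.00023. The other 2 miRNAs were at the floor on both days. Of the 4, 2 were called, against 53.6% of all tested.

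From day 5 to day 9 changes were small. In treated cells 0 of 4 miRNAs were called, against 58.5% of all tested; all 6 arrays were on slide 1. The log2 differences were -0.18 for miR-370-3p (95% confidence interval -0.48 to 0.13), -0.07 for miR-494-3p (95% confidence interval -0.29 to 0.14) and 0.21 for miR-487b-3p (95% confidence interval -0.09 to 0.51). With the percentile over all probes miR-370-3p was at -0.41 and was called (adjusted p = 0.0499). Without day 5 replicate 1, the difference of miR-487b-3p was 0.41. The sign of miR-494-3p turned to 0.07 without day 5 replicate 3, and that of miR-487b-3p turned under 5 other settings, among them quantile normalization and the percentile over all probes.

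Control cells at day 9 and day 5 lay on different slides. The differences were -0.28 for miR-370-3p (adjusted p = 0.11) and -0.22 for miR-494-3p (adjusted p = 0.080), and both turned positive with the percentile over all probes, at 0.03 and 0.10. miR-370-3p was called with total gene signal (-0.43, adjusted p = 0.039) or with only the groups compared (adjusted p = 0.047). miR-494-3p was called with the mean of all probes (-0.25, adjusted p = 0.047), with total gene signal (-0.37, adjusted p = 0.0074) and without day 5 replicate 1 or 2 (adjusted p = 0.030 and 0.040). miR-487b-3p was at least 1.20-fold lower in control cells (adjusted p = 0.023), where 2 of 3 day 5 arrays and 0 of 3 control arrays were above background. That call was lost with slide as a block (adjusted p = 0.66), with only the groups compared (adjusted p = 0.16), under normexp, with the higher floor, with no filter, and without any 1 of the control replicates (adjusted p = 0.052, 0.053 and 0.054). Without day 5 replicate 1 the fitted difference was -0.21 in place of -0.41 and was not called (adjusted p = 0.10). It was the 1 call among the 4, against 57.8% of all tested.

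**Figure D2:**
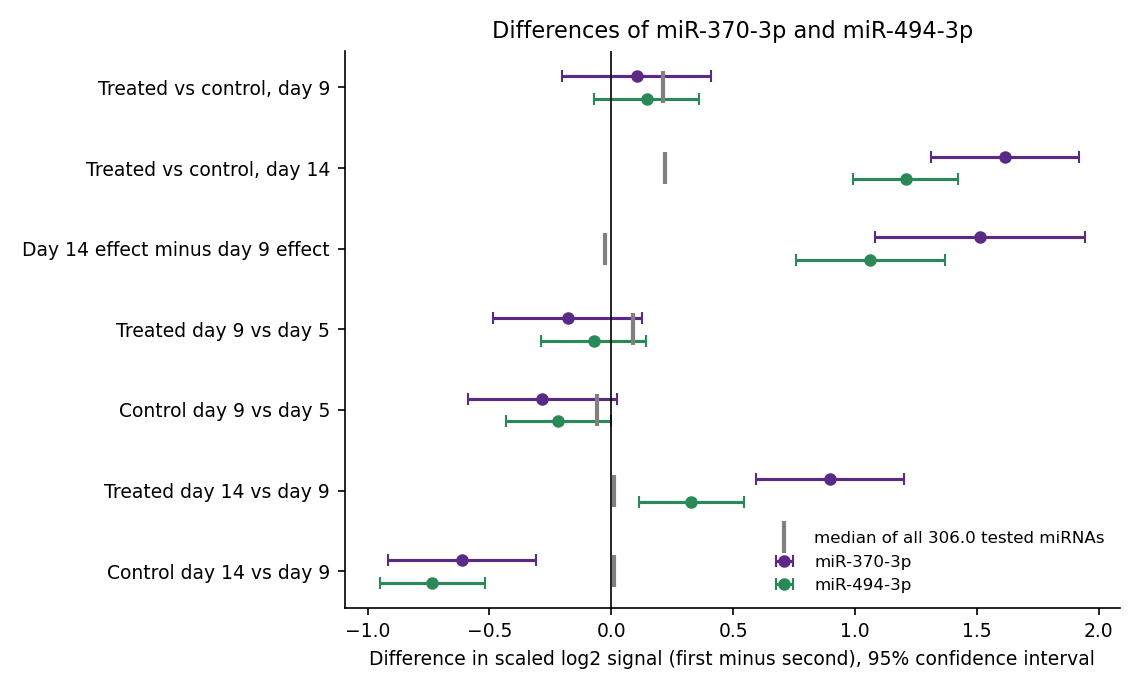
Differences in scaled log2 signal, first group minus second (x axis), of miR-370-3p and miR-494-3p in the 7 comparisons (y axis), with limma's 95% confidence intervals; grey bars mark the median of all 306 tested miRNAs. Treated against control at day 14 lies at 1.61 and 1.21 and at day 9 at 0.10 and 0.14, and the last 2 comparisons show the rise in treated cells (0.90 and 0.33) and the fall in control cells (-0.61 and -0.73).

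Each miRNA was measured by 2 probes of 20 spots. The brighter probe of miR-370-3p was 1.04 to 1.23 times as bright as the other, and that of miR-494-3p 2.11 to 2.56 times. Both probes of miR-370-3p were above background on all 15 arrays, and treated minus control at day 14 was 1.61 by one and 1.81 by the other. For miR-494-3p the probes gave 1.21 and 1.36. Treated and control arrays did not overlap on any of these 4 probes. The second probes of miR-487b-3p and miR-376a-3p were above background on 0 of 15 arrays, so each of these miRNAs rests on 1 probe. Spots of the brighter probe varied by a median coefficient of variation of 9.78% for miR-370-3p, 3.93% for miR-494-3p, 31.7% for miR-487b-3p and 29.7% for miR-376a-3p.

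**Figure D3:**
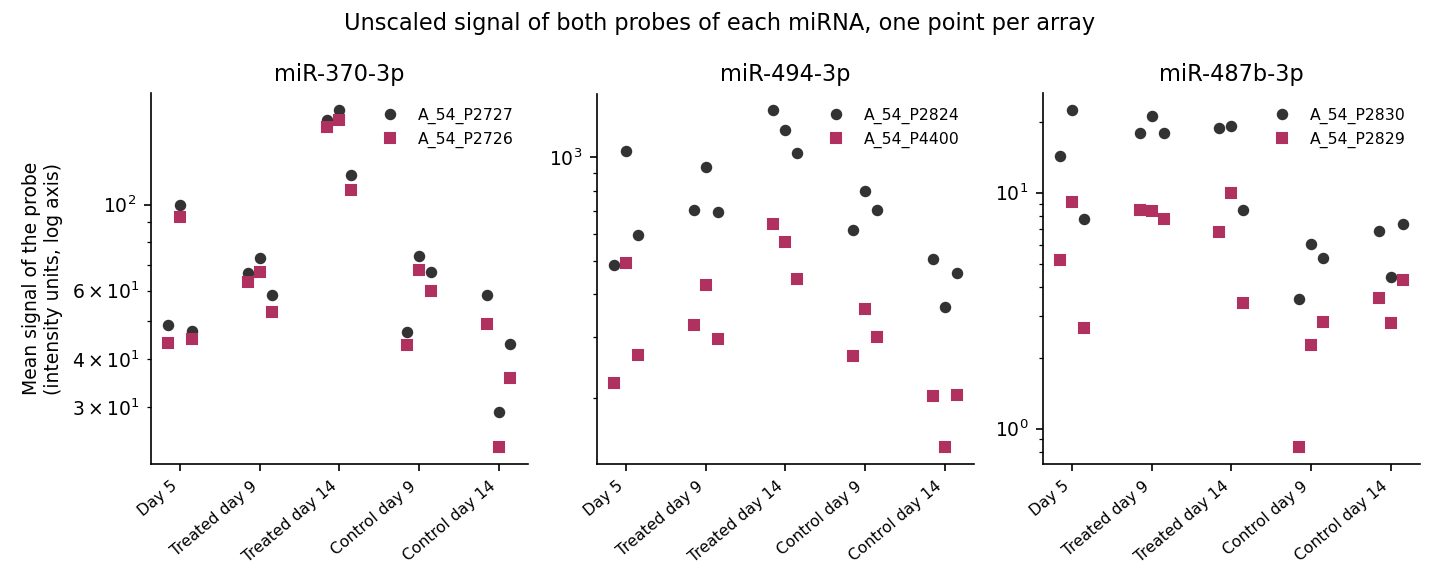
Unscaled mean signal in intensity units (y axis, logarithmic) of the 2 probes of miR-370-3p, miR-494-3p and miR-487b-3p, one point per array in the 5 groups (x axis). For miR-370-3p and miR-494-3p both probes keep the same order of groups at day 14: the brighter probe of miR-370-3p runs from 29.3 in a control day 14 array to 175 in a treated day 14 array, and that of miR-494-3p from 368 to 1371, while the second probe of miR-487b-3p stays at or below 9.97.

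The other strand of each hairpin, the 5p arm, had signal above background on 0 of 15 arrays for all 4 hairpins. Single spots gave the same picture, with 0 of 575 spots above background for miR-370-5p, 0 of 565 for miR-494-5p, 0 of 586 for miR-487b-5p and 0 of 585 for miR-376a-5p. Their mean signals ran from -3.05 to 2.12 intensity units after background subtraction.

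The 4 miRNAs do not cover everything that was detected from the domain. The array measures 114 arms of the domain. At least 1 of the 15 arrays showed signal above background for 12 of them (10.5%, against 32.4% of all mouse miRNAs), and 8 of those 12 are not among the 4. miR-3072-5p was above background on 15 arrays, with group means from -1.32 in control cells at day 9 to -0.92 in treated cells at day 14. miR-432 was above background on 12 arrays, and miR-770-3p, whose hairpin lies in Meg3, on 6, which were the 3 treated and the 3 control arrays of day 14. miR-134-5p, known for limiting dendritic spine size, was above background on 6 arrays and miR-1188-3p, the neighbour of miR-370 in Rian, on 3. miR-127-3p, which lies antisense to the paternally expressed Rtl1, and miR-3070b-3p and miR-376c-3p were each above background on treated day 14 replicate 1 alone. An array showed 3 to 12 of the arms, and the 12 were on that same replicate, which also had the most mouse miRNAs above background (333).

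Detected arms were also counted by stretch of the chromosome, as a description. In the stretch from Mir379 to Mir410, which holds 36 hairpins, 5 of 70 arms gave signal above background on at least 1 array. The 1 arm that did so on all 15 was miR-494-3p. The other 65 arms of the stretch were above background on none. Upstream of Mir379, where Mir370 lies, 6 of 36 arms gave such signal. These counts include arms seen on treated day 14 replicate 1 alone, namely miR-376c-3p in the stretch, and miR-127-3p and miR-3070b-3p upstream of it. Whether detection differed between the stretches was not tested.

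**Figure D4:**
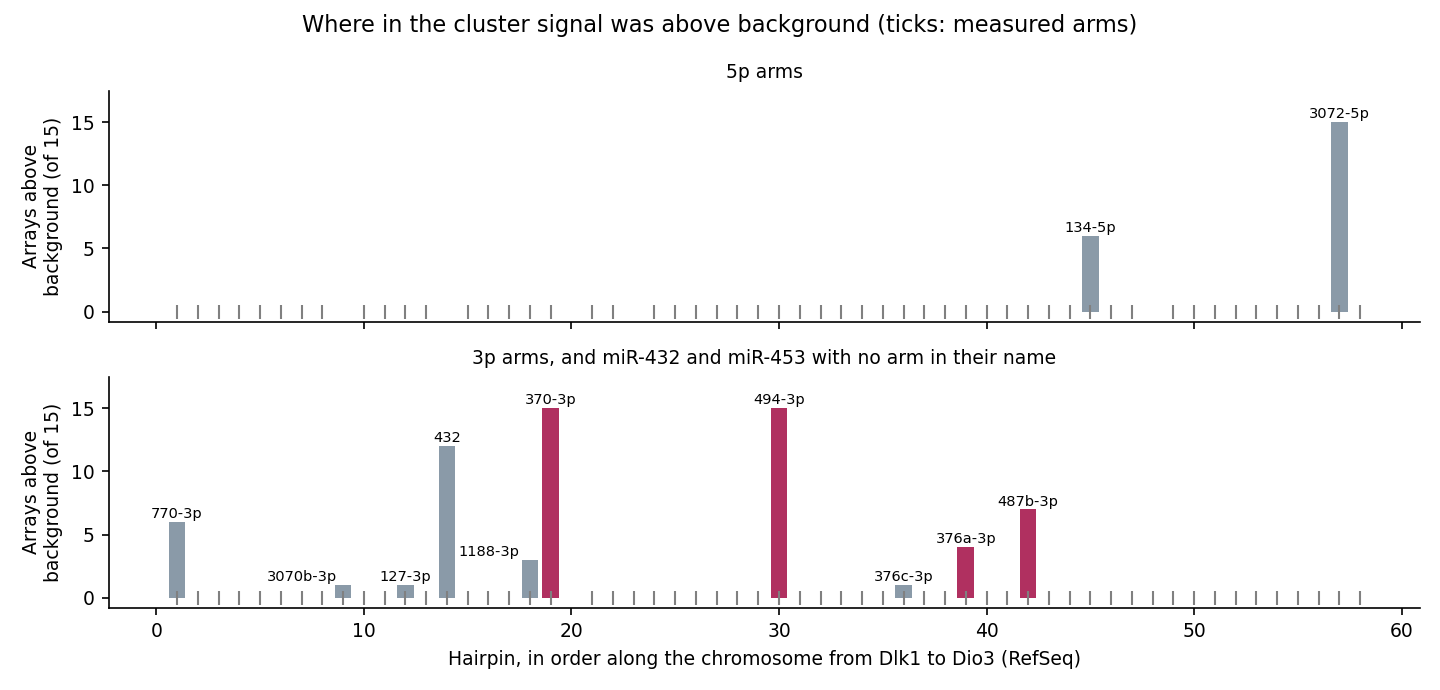
Number of arrays above background, of 15 (y axis), for each measured arm of the domain, with hairpins in RefSeq order from Dlk1 to Dio3 (x axis); the upper panel holds 5p arms and the lower panel the others, with the 4 miRNAs in red and ticks for the 110 measured arms with a hairpin in the table. miR-370-3p, miR-494-3p and miR-3072-5p reach 15 and miR-432 reaches 12, while most arms, those around Mir494 among them, stand at 0.

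Of the 12, 7 passed the filter for testing: the 4 and miR-3072-5p, miR-432 and miR-770-3p. This filter keeps an arm that is above background throughout at least 1 group, so these 7 are not all arms of the domain, and the counts that follow describe them beside all 306 and support nothing about the domain. Treated against control at day 9, 1 of 7 was higher, miR-487b-3p, and 0 lower (median log2 difference 0.10), where 113 of 306 were higher and 50 lower (median 0.21). At day 14, 2 were higher and 0 lower (median 0.15), where 119 of 306 were higher and 40 lower (median 0.22). In the difference between the days 2 were higher and 0 lower (median 0.10), where 56 of 306 were higher and 47 lower (median -0.03). The 3 arms outside the 4 did not pass the test at day 14. Their differences were 0.15 for miR-3072-5p (adjusted p = 0.36), 0.03 for miR-432 (adjusted p = 0.93) and -0.24 for miR-770-3p (adjusted p = 0.090).

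From day 9 to day 14 in treated cells, 5 of 7 were called higher and 1, miR-487b-3p, lower (median 0.33), where 110 of 306 were called higher and 95 lower (median 0.01). The 6 of 7 called stand beside 67.0% of all tested. Besides miR-370-3p and miR-494-3p, miR-432 rose by 0.70 (adjusted p = 0.0012) and miR-3072-5p by 0.39 (adjusted p = 0.014). miR-770-3p differed by 0.33 in floored log2 signal. Its treated day 14 replicate 3 was at the floor, so no lower bound of the fold is given. In control cells 2 of 7 were called higher and 2 lower (median 0.00), where 88 of 306 were higher and 76 lower (median 0.01). miR-432 rose by 0.94 (adjusted p = 0.00013), while miR-370-3p and miR-494-3p fell in the same arrays. miR-770-3p was at least 1.34-fold higher. It entered the tested set through the day 14 groups alone, where it is high, so its differences in treated and in control cells are descriptions. From day 5 to day 9, 1 rose and 1 fell in treated cells (median -0.05), where 116 of 306 were higher and 63 lower (median 0.09). These were miR-432, which rose by 0.47 (adjusted p = 0.017), and miR-3072-5p, which fell by 0.34 (adjusted p = 0.035). In control cells 0 rose and 2 fell (median -0.22), where 76 of 306 were higher and 101 lower (median -0.06). These were miR-487b-3p and miR-3072-5p, the latter by 0.34 (adjusted p = 0.031).

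Across the 15 arrays the pattern most like that of miR-370-3p among the 306 tested miRNAs was that of miR-494-3p, and the reverse also held, with Pearson r = 0.887. Within slide 1 (8 arrays) r was 0.770 and within slide 2 (7 arrays) 0.912. These are descriptions: the arrays share groups, slides and the scaling of each array. Next for miR-370-3p came miR-1934-3p (0.837), miR-1894-3p (0.798), miR-760-3p (0.793) and miR-1982-5p (0.793). Of these, miR-760-3p was above background on 6 of the 15 arrays, and miR-1982-5p had an r of 0.47 within slide 2. Next for miR-494-3p came miR-690 (0.840, but 0.08 within slide 1), miR-1934-3p (0.820), miR-669f-3p (0.818, and -0.29 within slide 1) and miR-92b-3p (0.813, and 0.10 within slide 1). None of these others belongs to the domain.

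miR-487b-3p did not follow the bright pair: its r was 0.226 with miR-370-3p and 0.307 with miR-494-3p, and within slide 1 these were -0.526 and -0.827. The miRNAs most like it were miR-3963 (0.902), miR-5100 (0.897), miR-212-3p (0.894), miR-3968 (0.891) and miR-5097 (0.886). Within slide 1 these 5 ran from 0.730 to 0.946, and within slide 2 miR-487b-3p was at the floor on every array and has no r. For miR-376a-3p, with 12 arrays at the floor, the highest were miR-652-5p (0.584), miR-3474 (0.545), miR-5119 (0.533), miR-721 (0.479) and miR-705 (0.477). Within slide 1 these 5 ran from 0.14 to 0.48. Within slide 2, where only treated day 14 replicate 3 was above the floor for miR-376a-3p, they ran from 0.71 to 0.87. miR-3474 was itself above background on 5 of the 15 arrays.

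Marker miRNAs gave the state of the cultures in which these levels were read. Their summed levels are on the scaled log2 scale. All 5 primed pluripotent markers, from the miR-302 cluster, were detected, and they summed to between 1.09 and 1.62 at day 5 and between -1.67 and -1.46 in both day 14 groups. All 5 naive pluripotent markers, from the miR-290 cluster, were above background on at least 1 array, and 0 of them on all arrays. They summed to between -1.09 and -1.05 at day 5. At day 14 they stood between -1.77 and -1.66 in treated and between -1.88 and -1.74 in control cells. All 8 neuronal markers were detected, and stood between 2.20 and 2.31 at day 5, between 4.11 and 4.27 in treated and between 4.67 and 4.91 in control cells at day 14. miR-133b-3p, the marker for midbrain dopaminergic neurons, was above background on 0 arrays. Of the 6 mesenchymal markers 3 were detected, at 0.30 to 0.37 in treated against -0.27 to -0.16 in control cells at day 14, with miR-143-3p, miR-145-5p and miR-214-3p on 0 arrays. Both glial markers were detected. At day 14 they summed to between 1.25 and 1.59 in treated and between 0.70 and 0.73 in control cells. Their sums were higher at day 5 (1.68 to 1.88) and in treated cells at day 9 (2.30 to 2.38) than in either day 14 group. Of the 4 endodermal markers only miR-375-3p was detected. At day 14 the list stood at -0.83 to -0.68 in treated cells and at its floor of -2.24 in control cells, a difference that rests on that 1 miRNA. All 5 endothelial and blood markers, and both striated muscle markers on the array, were above background on 0 arrays. Shares of cell types were not measured. Whether the differences in these marker sums bear on the day 14 differences of miR-370-3p and miR-494-3p was not tested. In such bulk samples fewer cells of a type and less RNA per cell cannot be told apart.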

How the data were processed

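Total RNA from 15 samples was labelled with Cy3 and hybridised to 1-colour Agilent mouse miRNA arrays, per the labels' protocols. Intensity values (processed signal, median and background signal, total gene signal) and the quality flags for outlier, saturation and above-background spots were deposited by the authors as written by Feature Extraction 11.0.1.1, per the file headers. limma 3.20.9 is named in the submitters' processing notes, with no role given. The authors also deposited a value table of intensity values. Its columns equal, within 0.01 intensity units, the mean over all spots of a probe, outliers included. The column of treated day 14 replicate 2 repeats replicate 1 for 89.4% of rows, so both counted as 1 array in that setting.

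Spots of a probe that were not outliers were averaged and divided by the array's 75th percentile, floored and put on the log2 scale. A probe was above background where at least 50% of its spots were. The level of a miRNA was that of its brightest probe, and a miRNA was above background where any of its probes was. A miRNA entered the fit if some group had it above background on each of its 3 arrays. These 306 were fitted in limma 3.58.1 (R 4.3.3) with 5 groups and 10 residual degrees of freedom. Two-sided moderated tests were adjusted by Benjamini-Hochberg over all 306 and called below 0.05. The fit was tested on simulated data. Normexp used the median spot signal, with an offset of 50. The RefSeq table names 881 of the array's mouse miRNAs. Figures used matplotlib 3.10.9.

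The members, lists and alternatives were chosen with earlier results of these data known. Named were the 4 miRNAs, their other arms, arms of the domain above background on at least 1 array, and the 5 tested miRNAs with the highest r.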

Additional observations from a re-analysis of the deposited data

Results flagged for a closer look

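The treatment difference itself differed between days for both bright miRNAs, by the interaction of treatment and day. For miR-370-3p the log2 difference of treated against control was larger at day 14 than at day 9 by 1.51, from 0.10 to 1.61. For miR-494-3p it was larger by 1.06, from 0.14 to 1.21. Treated and control arrays at day 9 lay on different slides, and with slide as a block the values were 1.60 and 1.09.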

How the results depend on the processing

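The calls of miR-370-3p and miR-494-3p in treated against control at day 14 and in the difference between days kept their direction and their call under all 15 omissions of 1 array and all 15 or 16 other settings tried, as did their falls in control cells. Omitting an array gave 1.47 to 1.77 and 1.16 to 1.24 at day 14. Pairing arrays by replicate number, as a replicate block, changed no call of the 4 miRNAs, with 161 in place of 163 calls over all miRNAs at day 9. Same-numbered arrays of different groups correlated at a median of 0.02 (11 of 30 pairs over 0.1). For differently numbered arrays the median was 0.01 (23 of 60 pairs over 0.1), so the numbers were not taken as pairs.

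At day 9, treated against control, 1 of the 4 was called. This became 0 with slide as a block, normexp, a floor 4 times higher, the deposited value table or only miRNAs above background on all arrays (which tests 2 of the 4), 2 with array weights or only the groups compared, and 3 with the percentile over all probes. miR-370-3p turned to -0.18 (slide block), -0.44 (all probes), -0.24 (quantile) and -0.16 (median), and miR-494-3p to -0.40, -0.078 and -0.12 under the last 3. In the deposited value table miR-487b-3p turned to -2.77 at day 9, 2.86 between the days and 3.00 for control day 9 against day 5. There, control day 9 replicate 1 reads 11256, from 1 outlier spot of 225060 beside spots of at most 7.77. Under normexp miR-376a-3p turned to -0.055 (day 14), -0.11 (between days) and -0.15 (treated day 14 against day 9).

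For treated day 9 against day 5, 0 calls became 1 with all probes and ran from 0 to 1 as arrays were left out. There miR-494-3p turned to 0.048 with array weights and ran from -0.15 to 0.065 as arrays were left out. miR-487b-3p turned to -0.026 (all probes), -0.035 (quantile), -0.099 (normexp), -0.11 (total gene signal) and -0.063 (array weights). For control day 9 against day 5, 1 call became 0 with slide as a block, normexp, a higher floor, no filter, only miRNAs above background on all arrays or the value table, 2 with the mean of all probes and 3 with total gene signal, and ran from 0 to 2 as arrays were left out. All probes turned miR-370-3p to 0.030 and miR-494-3p to 0.095. For treated day 14 against day 9, 3 calls became 1 within slide 1 and with total gene signal. The causes were not tested.

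Calls over all miRNAs fell in all 7 comparisons under normexp: 163 became 72 and 159 became 59 for treated against control at days 9 and 14, 103 became 22 between days, 179 became 97 and 177 became 100 for day 9 against day 5, and 205 became 129 and 164 became 98 for day 14 against day 9. With slide as a block 163 became 75 and 177 became 99. With the higher floor 163 became 92, 159 became 93, 103 became 75, 179 became 121, 177 became 101, 205 became 132 and 164 became 93. The share of higher among called miRNAs at day 14 was 74.8%, and 32.2% with all probes; at day 9 it was 69.3% and 25.3%. Signal near background limits miR-487b-3p and miR-376a-3p, and 3 arrays a group limit precision throughout.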
